A study of Mus musculus with 96 samples.

Results

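Piericidin was compared with its vehicle DMSO in C2C12 myotubes that made LbNOX, in 6 of the 96 RNA-seq samples of the series, identified by their labels: 3 LbNOX myotube samples with piericidin and 3 with DMSO. C2C12 is a mouse myoblast line that fuses into myotubes in low serum. All 6 samples had spent 4 days in low serum, had received an adenovirus carrying LbNOX and eGFP after the first 48 hr of that time, and were treated for 10 hr with 0.5 µM piericidin or with DMSO in medium with 10 mM glucose and 4 mM glutamine and no pyruvate. Reference samples were GFP myotubes, which had an adenovirus carrying eGFP alone (2 with piericidin, 2 with DMSO), untransduced myotubes (3 and 3), LbNOX myoblasts (3 and 3) and LbNOX myotubes with 1 µM oligomycin, an inhibitor of ATP synthase (3, set against the same 3 DMSO samples). A further 2 GFP myotube samples with oligomycin entered the fit only for its estimate of spread. Dose and time were the same in every piericidin group. The LbNOX myoblasts carried LbNOX on a lentivirus under doxycycline, given at 300 ng/ml, so LbNOX reached myoblasts and myotubes by different vectors. The labels number the replicates without saying whether they were separate cultures, so p-values here measure only the spread between these samples, which may be technical.

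Complex I of the respiratory chain takes electrons from NADH, and piericidin blocks it at its ubiquinone site. LbNOX is a water-forming NADH oxidase from Lactobacillus brevis that oxidizes NADH in the cytosol without the respiratory chain. Hypoxia-inducible factor (HIF) is a transcription factor whose alpha subunit is marked for breakdown by oxygen-using prolyl hydroxylases. It drives glucose uptake, glycolysis and lactate export. The integrated stress response (ISR) runs from kinases of eIF2α to the transcription factor ATF4 and its targets in amino acid synthesis, transport and secreted signals.

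Total counts of the 6 samples were 8962516 to 10044896, and those of the 21 reference samples 6458295 to 14960910. A single gene model, CT010467.1, held 24.8% to 28.4% of the counts of the 6 samples. In CPM, counts scaled to a common library total, LbNOX was at 7455 to 8034 with DMSO and 5897 to 6418 with piericidin, without overlap, and at 0 in the 4 GFP myotube samples. eGFP CPM were 2324 to 2575 with DMSO, 2127 to 2374 with piericidin, and in the GFP myotubes 7991 and 7602 with DMSO and 6146 and 6420 with piericidin, without overlap. The RNA of LbNOX in LbNOX myotubes and that of eGFP in GFP myotubes were thus both lower with piericidin. LbNOX CPM were 11870 to 12130 with oligomycin and 792.5 to 1082 in the LbNOX myoblasts. The part of these levels in the results below was not tested. The summed level of 25 myotube markers was 26240 to 28910 CPM with DMSO and 30610 to 31320 with piericidin, against 24.7 to 35.2 in LbNOX myoblasts with DMSO. Abundant genes such as Acta1, given below, weigh most in this sum. The median log2 fold change of the 25 with piericidin was 0.02, with 13 positive and 12 negative. Summed markers of other cells stayed low in both groups, with 8 osteoblast markers at 15.8 to 19.7, 8 adipocyte markers at 2.57 to 5.46 and 8 endothelial and immune markers at 1.67 to 4.55 CPM, while Adipoq, Cidec, Lep, Bglap and Ibsp were at 0 in all 6. The summed level of 33 cell cycle genes was 2836 to 2914 with DMSO and 2513 to 2543 with piericidin. This list includes the inhibitor Cdkn1a, its only gene called lower, and 31 of the 33 were not called, so the sum is no measure of cycling cells.

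With piericidin, LbNOX myotubes lowered genes of the hypoxia response and of glycolysis, raised a small set of ISR genes, and raised Nmrk2, while of 25 myotube markers 7 rose and 4 fell. At an adjusted p under 0.05, 841 of 12397 genes tested were called (6.78%), 402 higher (3.24%) and 439 lower (3.54%). Without the count filter 1362 were called. Without 1 sample the count was 528 to 643, and it moved by more than 1.5 times without DMSO replicate 2 (528) and without piericidin replicate 3 (552). The changes were mostly small, with a median absolute log2 fold change of 0.404 and 100 genes past 2-fold. The 3 piericidin and 3 DMSO samples did not overlap in 835 of the 841, and did not overlap in 3279 of all genes tested (26.4%). Since these are bulk samples, fewer cells of a type and less RNA per cell cannot be told apart. Values below are CPM after TMM normalization, in the order of replicates 1, 2 and 3, and fold changes are log2 with their standard errors from edgeR.

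Most targets of HIF fell. Of 16 listed targets, 13 fell, 0 rose and 3 did not pass the test, with a median log2 fold change of -1.08 against -0.00481 over all genes tested. Slc2a1 (chr4:119108711-119137983), the basal glucose transporter GLUT1, was at 67.3, 78.3 and 64.2 with DMSO and 32, 31.9 and 28.7 with piericidin. The groups did not overlap, and the log2 fold change was -1.18 ± 0.082 (adjusted p = 7.36e-07). Pdk1, the kinase that inactivates pyruvate dehydrogenase, was at 156, 171 and 144 with DMSO and 72.2, 73.9 and 71.1 with piericidin, a log2 fold change of -1.11 ± 0.089 (adjusted p = 2.56e-06). The piericidin samples of Pdk1 lay close together and under every DMSO sample.

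The prolyl hydroxylase Egln3, itself a HIF target that feeds back on HIF, was at 170.2, 188 and 144 with DMSO and 77.8, 65 and 59.2 with piericidin (log2 fold change -1.32 ± 0.12, adjusted p = 5.3e-06). Ankrd37, a small ankyrin repeat protein gene, was at 12.7, 17.9 and 12.3 and fell to 2.41, 2.75 and 3.1 (log2 fold change -2.38 ± 0.32, adjusted p = 0.000389). Ndrg1, a stress-induced cytoplasmic protein, was at 296, 340.2 and 279 with DMSO and 96.2, 97.7 and 97.5 with piericidin (log2 fold change -1.65 ± 0.074, adjusted p = 9.31e-09). In each of these genes all piericidin samples lay under all DMSO samples. The collagen prolyl hydroxylase subunits P4ha1 and P4ha2 fell together, with log2 fold changes of -1.20 ± 0.044 and -1.05 ± 0.081, as did the mitophagy receptor Bnip3 at -1.02 ± 0.12 and the peptide hormone Adm at -1.52 ± 0.30. Ero1l, an oxidase of the endoplasmic reticulum, Ddit4, an inhibitor of mTORC1, Higd1a, a respiratory chain assembly protein, and Kdm3a, a histone demethylase, fell by 1.05, 1.31, 0.81 and 0.78 on the log2 scale. Egln1 and Vegfa, the main angiogenic ligand, did not pass (log2 fold changes -0.64 ± 0.20 and -0.62 ± 0.25, adjusted p = 0.0686 and 0.159). Car9, a carbonic anhydrase often used as a hypoxia marker, had overlapping samples, 81.3, 79.2 and 56.4 with DMSO and 74.9, 64.6 and 43.3 with piericidin, and an adjusted p of 0.577.

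**Figure D1:**
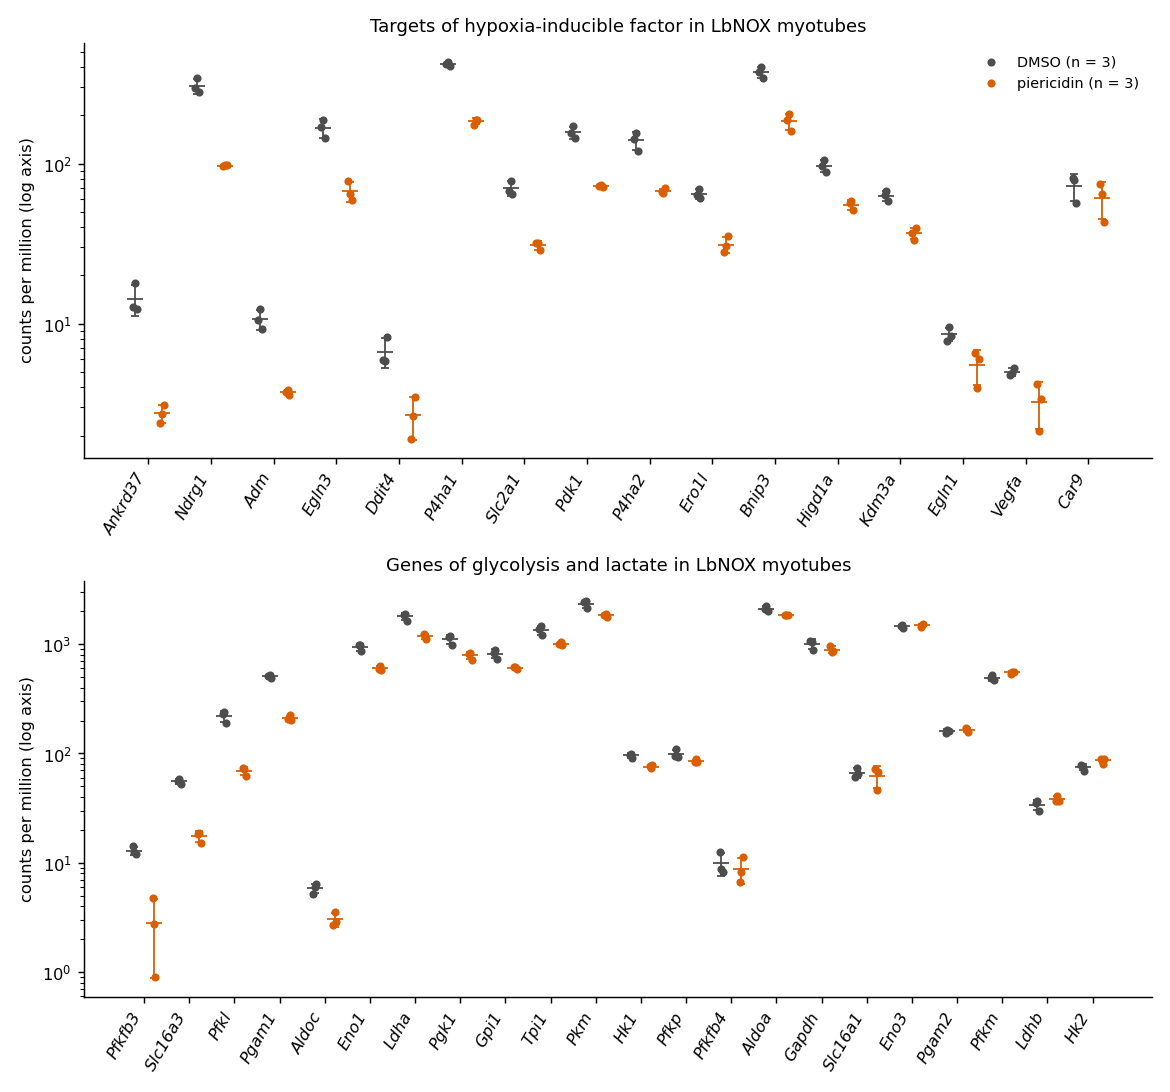
CPM (log axis) of the 16 HIF targets (top) and of 22 tested genes of glycolysis and lactate (bottom) in the 3 DMSO and 3 piericidin samples of LbNOX myotubes, with dots for samples and bars for the mean and SD; genes are ordered by log2 fold change. The piericidin samples lie under every DMSO sample in 15 of the 16 HIF targets and in 14 of the 22 glycolysis genes.

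HIF binds DNA at a short core of the letters ACGTG or GCGTG. The core ACGTG was searched on both strands in the 250 bases before and 50 bases after the annotated starts of genes in RefSeq (GRCm38.p6), in which 19.6% of 32851 promoters held it. Genes were matched to these sequences by symbol or synonym. Counting a gene as positive when any of its promoters held the core, 12 of 15 HIF targets with a sequence were positive, 13 of 22 glycolysis genes, 119 of the 333 genes called lower (35.7%), 88 of the 303 genes called higher (29.0%) and 2805 of 9414 genes tested (29.8%). With ACGTG or GCGTG allowed, the shares were 43.8% of all promoters, 15 of 15 HIF targets, 19 of 22 glycolysis genes, 67.3% of genes called lower, 68.0% of genes called higher and 68.4% of genes tested. The share among genes called lower was above that of genes tested for ACGTG and not for ACGTG or GCGTG. Since the HIF list was chosen as targets, its share is a description. The 250 bases before the start of 4 genes that fell are shown in lower case from 5′ to 3′ on the gene's strand, with the core, or its reverse complement CACGT, in capitals, because these 4 are among the hypoxia and glycolysis genes that fell and hold the core.
Ankrd37 (chr8:45999851-46000100, minus strand): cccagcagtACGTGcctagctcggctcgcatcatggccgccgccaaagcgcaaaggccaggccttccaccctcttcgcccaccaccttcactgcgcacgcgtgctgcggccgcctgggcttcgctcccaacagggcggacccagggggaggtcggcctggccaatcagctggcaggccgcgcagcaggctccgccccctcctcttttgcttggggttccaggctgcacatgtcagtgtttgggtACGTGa
Egln3 (chr12:54203875-54204124, minus strand): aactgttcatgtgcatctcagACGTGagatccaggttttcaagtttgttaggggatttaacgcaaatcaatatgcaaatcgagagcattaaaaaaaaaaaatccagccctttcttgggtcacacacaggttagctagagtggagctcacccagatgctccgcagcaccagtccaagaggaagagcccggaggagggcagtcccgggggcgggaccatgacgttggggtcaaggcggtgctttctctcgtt
Slc16a3 (chr11:120948817-120949066, plus strand): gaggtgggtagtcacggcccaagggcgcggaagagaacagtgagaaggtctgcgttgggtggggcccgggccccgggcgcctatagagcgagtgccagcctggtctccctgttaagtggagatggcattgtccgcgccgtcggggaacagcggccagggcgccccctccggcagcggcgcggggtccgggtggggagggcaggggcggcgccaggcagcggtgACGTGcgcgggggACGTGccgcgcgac
Pgam1 (chr19:41911621-41911870, plus strand): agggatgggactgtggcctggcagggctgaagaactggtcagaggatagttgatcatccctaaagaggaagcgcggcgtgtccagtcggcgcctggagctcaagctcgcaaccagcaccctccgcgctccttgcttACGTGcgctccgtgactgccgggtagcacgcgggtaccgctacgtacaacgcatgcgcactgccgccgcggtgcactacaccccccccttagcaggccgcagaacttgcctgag
The first letters of the core lay 241 and 6 bases before the start in Ankrd37, 229 in Egln3, 27 and 14 in Slc16a3 and 114 in Pgam1. The RefSeq starts used for Slc16a3 and Ankrd37 lie inside the spans of these genes in GENCODE, another annotation. The letters alone do not show that HIF was bound there.

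Glycolysis genes fell at most steps from glucose phosphorylation to lactate export. Of 22 tested genes of glycolysis and lactate, 13 fell, 2 rose and 7 did not pass, with a median log2 fold change of -0.34. Slc16a3 (chr11:120948480-120960868), the lactate exporter MCT4, was at 56.5, 58.2 and 52.8 with DMSO and 18.4, 18.8 and 15.2 with piericidin, 3.2 times lower on the means (log2 fold change -1.68 ± 0.10, adjusted p = 2.19e-07). Pfkl (chr10:77986947-78010083), the liver-type phosphofructokinase, was at 229, 242 and 189 with DMSO and 73.3, 71.7 and 62.3 with piericidin (log2 fold change -1.67 ± 0.081, adjusted p = 2.01e-08). Each sample of Slc16a3 and Pfkl with piericidin was under each DMSO sample. Pgam1 (chr19:41911923-41918660), phosphoglycerate mutase, was at 515, 517 and 487 and fell to 207, 223 and 204 (log2 fold change -1.26 ± 0.044, adjusted p = 8.89e-10). Its processed copy Pgam1-ps2, near identical in sequence, gave a log2 fold change of -1.55 ± 0.12, and reads of the pair could have been split between them, so the value of Pgam1-ps2 is uncertain.

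Pfkfb3, which makes the activator of phosphofructokinase, had the largest standard error of the 13 glycolysis genes that fell. It was at 14.2, 12.4 and 12 with DMSO and 4.72, 2.75 and 0.899 with piericidin, without overlap (log2 fold change -2.21 ± 0.37, adjusted p = 0.00206). The abundant enzymes Ldha, Eno1 and Pgk1 fell by 0.61, 0.64 and 0.49 on the log2 scale, and Tpi1, Gpi1, Pkm and Hk1 by 0.42, 0.42, 0.34 and 0.34. Aldoa and Aldoc, the aldolases, had log2 fold changes of -0.18 ± 0.045 and -0.93 ± 0.25 (adjusted p = 0.0244 and 0.0405). Leaving out any 1 of the 6 samples ended the call of Aldoc, and any 1 other than DMSO replicate 3 that of Aldoa. Eno3, muscle enolase, was at 1452, 1508 and 1420.0 with DMSO and 1421, 1503 and 1534 with piericidin (log2 fold change 0.025 ± 0.038, adjusted p = 0.756), and Pgam2, the muscle mutase, had a log2 fold change of 0.04 ± 0.06 (adjusted p = 0.754). Pfkm, the muscle phosphofructokinase, rose slightly at 0.17 ± 0.046 (adjusted p = 0.0396), as did hexokinase 2 (Hk2) at 0.21 ± 0.059 (adjusted p = 0.0452). Both adjusted p-values lay just under the threshold, and leaving out 1 sample ended the call of Pfkm in 5 of 6 cases and that of Hk2 in 4 of 6. Gapdh, Pfkp, Pfkfb4, Ldhb and Slc16a1 did not pass the test.

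Several of the largest falls were outside these lists. Apln (chrX:48025146-48034853), which encodes the secreted peptide apelin, was at 13.5, 23.8 and 16.4 with DMSO and 1.51, 0.813 and 1.7 with piericidin (log2 fold change -3.73 ± 0.57, adjusted p = 0.00101). Gpr35 (chr1:92950865-92986391), a G protein-coupled receptor, was at 11.7, 16.6 and 13.1 and 1.51, 1.63 and 0.999 (log2 fold change -3.32 ± 0.33, adjusted p = 2.1e-05). All 3 piericidin samples of Apln and Gpr35 were under 2 CPM, and the groups did not overlap. Ak4, an adenylate kinase of the mitochondrial matrix, was at 30.1, 29 and 22.7 with DMSO and 3.92, 4.17 and 4.4 with piericidin, a fold of 6.55 between the means (log2 fold change -2.71 ± 0.22, adjusted p = 2.57e-06). E2f2, a transcription factor of the cell cycle, was at 84.3, 71.3 and 75.5 and 24.4, 29.5 and 26.2 (log2 fold change -1.53 ± 0.11, adjusted p = 7.69e-07). The carbonic anhydrase Car12, the membrane protein gene Tmem45a, the small GTPase Rrad and the collagen lysyl hydroxylase Plod2 had log2 fold changes of -2.05 ± 0.32, -1.63 ± 0.16, -1.51 ± 0.41 and -1.46 ± 0.30. The call of Rrad was lost when any 1 sample other than piericidin replicate 1 was left out. Rrad and Plod2 had wide spread: the piericidin samples of Rrad were 24.5, 8.03 and 19.4, and the DMSO samples of Plod2 were 46.6, 83.2 and 81.3.

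Genes of the ISR rose. Values with oligomycin, which shares the DMSO samples, are given beside those of piericidin for scale. Of 12 tested genes in the list of ISR transcription factors and feedback genes, 8 rose, 1 fell (Ddit4, which is also a HIF target) and 3 did not pass, with a median log2 fold change of 0.37. Atf3 (chr1:191170296-191218039), a stress-induced transcription factor, was at 3.87, 3.26 and 3.11 with DMSO, 10.8, 7.73 and 10.8 with piericidin and 269.6, 272 and 255 with oligomycin. Its log2 fold change was 1.51 ± 0.14 with piericidin (adjusted p = 8.89e-06) and 6.27 ± 0.12 with oligomycin, and the piericidin samples lay above every DMSO sample and under every oligomycin sample. Ddit3, the transcription factor CHOP, was at 19.1, 20.9 and 18.7, 33.2, 37.1 and 34.1 and 436, 432 and 417 in the same order (log2 fold changes 0.83 ± 0.07 and 4.45 ± 0.07, adjusted p = 4.14e-06 for piericidin). Trib3 (chr2:152337422-152344032), a pseudokinase that restrains ATF4, was at 8.35, 10.9 and 9.8 with DMSO and 26.8, 24.6 and 33.2 with piericidin (log2 fold change 1.54 ± 0.14, adjusted p = 7.39e-06). In Atf3, Ddit3 and Trib3 the DMSO, piericidin and oligomycin samples formed separate ranges. Chac1, which degrades glutathione, rose from 20.6, 20.6 and 17.9 to 45.1, 35.4 and 37.8 (log2 fold change 1.00 ± 0.10, adjusted p = 2.27e-05), and Sesn2, an inhibitor of mTORC1, from 14.2, 15.4 and 14.6 to 20.9, 20.6 and 20.6 (log2 fold change 0.49 ± 0.097, adjusted p = 0.00674).

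Atf4 itself was at 179.8, 189.9 and 194 with DMSO and 218, 221 and 230.2 with piericidin, a rise of 0.25 ± 0.042 (adjusted p = 0.00228) against 1.92 ± 0.043 with oligomycin. Atf4 is regulated mainly at translation, which RNA counts do not measure. Nupr1, a stress-induced chromatin protein, and Eif4ebp1, a repressor of translation initiation, rose by 0.27 ± 0.058 and 0.20 ± 0.056 (adjusted p = 0.0121 and 0.0463), the call of Eif4ebp1 being lost when any 1 sample other than piericidin replicate 2 was left out. Ppp1r15a, which encodes the phosphatase subunit GADD34 that reverses eIF2α phosphorylation, had overlapping samples with piericidin, a log2 fold change of 0.19 ± 0.11 and an adjusted p of 0.353, and 3.41 ± 0.11 with oligomycin. Cebpg and Atf5 of the same list did not pass with piericidin (adjusted p = 0.107 and 0.476).

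Both mitokines of the ISR rose. Gdf15 (chr8:70629393-70632456), a circulating stress signal, was at 2.54, 2.87 and 2.88 with DMSO and 8.84, 8.95 and 9.2 with piericidin, 3.25-fold on the means (log2 fold change 1.70 ± 0.12, adjusted p = 7.36e-07). Fgf21 (chr7:45613886-45615490), a metabolic hormone, was at 30.1, 28.1 and 31.1 and 55.8, 55.1 and 56.5 (log2 fold change 0.91 ± 0.057, adjusted p = 2.93e-07). In both genes every piericidin sample was above every DMSO sample. With oligomycin their log2 fold changes were 4.53 ± 0.10 and 2.88 ± 0.057. Vldlr, a lipoprotein receptor also on that list, had overlapping samples (log2 fold change -0.31 ± 0.11, adjusted p = 0.114).

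**Figure D2:**
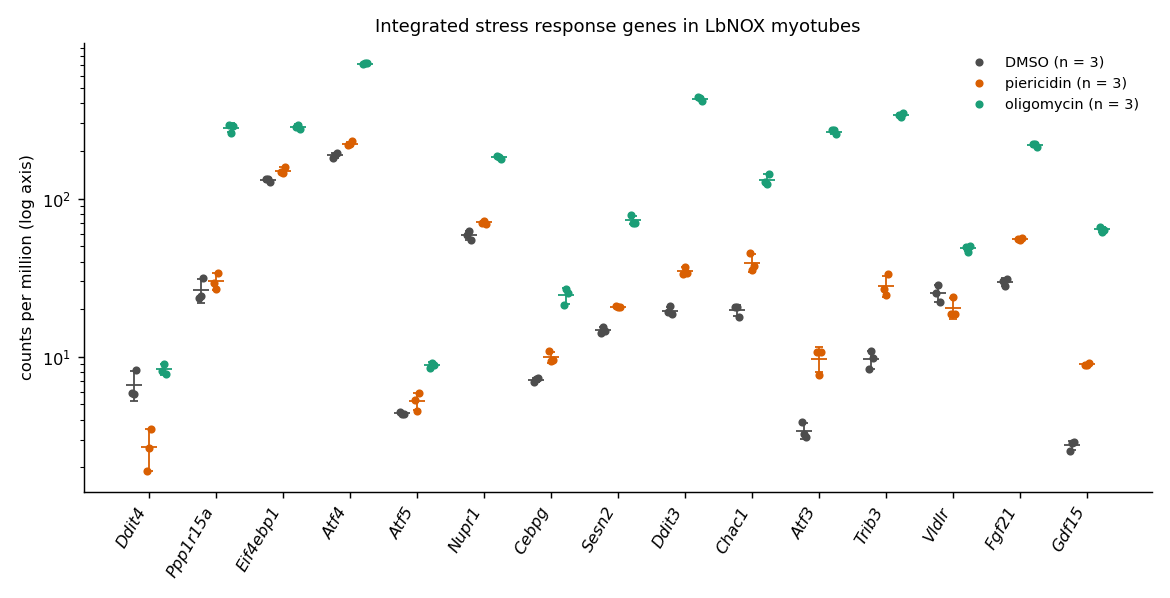
CPM (log axis) of 12 genes of ISR transcription factors and feedback and 3 ISR secreted factors in LbNOX myotubes with DMSO, piericidin and oligomycin, 3 samples each, with dots for samples and bars for the mean and SD. Piericidin samples of Atf3, Ddit3, Trib3 and Gdf15 lie above DMSO and under oligomycin.

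The response element of ATF4 and CEBP proteins has the letters TTGCATCA. On both strands it was in 0.895% of the 32851 promoters, in 9 of 303 genes called higher (2.97%), in 2 of 333 genes called lower (0.601%) and in 76 of 9414 genes tested (0.807%). Of the ISR list genes with a sequence, 9 of 33 held it. Atf3, Chac1, Fgf21, Got1 and Nupr1 of these rose, Slc1a4 fell, and Pycr1, Slc7a11 and Vldlr did not pass. The 250 bases before the start of 3 genes that rose are shown as above, with these letters or their reverse complement in capitals, since these 3 are among the ISR genes that rose and hold the element.
Atf3 (chr1:191183334-191183583, minus strand): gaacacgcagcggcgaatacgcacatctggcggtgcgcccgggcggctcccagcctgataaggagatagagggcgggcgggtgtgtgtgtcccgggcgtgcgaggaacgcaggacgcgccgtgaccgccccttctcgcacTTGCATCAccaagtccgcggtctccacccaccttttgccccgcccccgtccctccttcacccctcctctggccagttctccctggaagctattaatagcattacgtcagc
Chac1 (chr2:119350992-119351241, plus strand): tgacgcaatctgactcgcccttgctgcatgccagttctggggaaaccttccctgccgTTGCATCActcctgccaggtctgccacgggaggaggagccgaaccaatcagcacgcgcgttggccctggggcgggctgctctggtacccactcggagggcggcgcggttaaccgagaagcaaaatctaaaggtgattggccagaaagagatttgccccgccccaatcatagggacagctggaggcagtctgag
Fgf21 (chr7:45615491-45615740, minus strand): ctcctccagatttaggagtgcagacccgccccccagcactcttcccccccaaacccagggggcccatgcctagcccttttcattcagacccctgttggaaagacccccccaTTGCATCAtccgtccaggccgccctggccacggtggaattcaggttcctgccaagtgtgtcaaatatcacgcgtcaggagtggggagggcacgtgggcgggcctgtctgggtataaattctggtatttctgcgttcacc
The element began 110 bases before the start in Atf3, 193 in Chac1 and 139 in Fgf21. The RefSeq start used for Atf3 likewise lies inside its GENCODE span, so it is not the outermost start of that gene. The promoter of Trib3 in the same table did not hold these letters within this window.

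Some metabolic targets of ATF4 rose. Of 15 tested genes of amino acid synthesis and one-carbon metabolism, 8 rose, 1 fell and 6 did not pass, with a median log2 fold change of 0.23. In a fit of these 6 samples alone 5 rose, and leaving out 1 sample left 4 (without DMSO replicate 1 or 3), 5 (without piericidin replicate 2 or 3) or 6. Cth, which makes cysteine, was at 1.93, 3.56 and 2.19 with DMSO and 4.82, 4.37 and 6.2 with piericidin (log2 fold change 0.99 ± 0.24, adjusted p = 0.0208). Asns, asparagine synthetase, was at 82.7, 86.9 and 85.9 and 92.9, 108 and 99.6 (log2 fold change 0.23 ± 0.058, adjusted p = 0.0253), against 1.79 ± 0.058 with oligomycin. The call of Asns was lost in a fit of these 6 samples alone and when any 1 of them other than piericidin replicate 1 was left out, and that of Aldh1l2, given next, when any 1 of the 6 was left out. Cth lost its call without DMSO replicate 1 or 3 or piericidin replicate 3, and Phgdh without DMSO replicate 1 or 3 or piericidin replicate 1 or 2. Mthfd2, the mitochondrial folate enzyme, Got1, cytosolic aspartate aminotransferase, and Pck2, mitochondrial phosphoenolpyruvate carboxykinase, rose by 0.44 ± 0.067, 0.45 ± 0.057 and 0.32 ± 0.057, and Gpt2, Aldh1l2 and Phgdh by 0.29 ± 0.044, 0.30 ± 0.082 and 0.17 ± 0.044. Mthfd1l, a formate-producing enzyme of mitochondria, went the other way at -0.74 ± 0.12 (adjusted p = 0.00213). Psat1, Psph and Shmt2 of serine and glycine synthesis did not pass (log2 fold changes -0.025, 0.073 and 0.097). In amino acid transport 2 of 8 rose (Slc3a2 and Slc6a9) and 1 fell (Slc1a4), and of 20 cytosolic tRNA synthetases 3 rose (Lars, Sars and Wars) and 0 fell, while a fit of the 6 samples alone called none of the list and leaving out 1 sample gave 0 to 4. Oligomycin, set against the same DMSO samples, called 3964 genes (32%), 2052 of them higher (16.6%) and 1912 lower (15.4%), and raised 11 of the 12 ISR transcription factors and feedback genes and all 15 of amino acid synthesis and one-carbon metabolism. With oligomycin 11 of 16 HIF targets fell and 1 rose (median log2 fold change -0.93, beside -1.08 with piericidin), and 18 of 22 glycolysis genes fell and 2 rose (median -0.63, beside -0.34).

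Genes of NAD and of NADH shuttles included the largest rise among the genes named by the rule. Nmrk2 (chr10:81198170-81202051), the muscle nicotinamide riboside kinase, was at 14.9, 14.3 and 13.6 with DMSO and 60.2, 50.5 and 66.1 with piericidin, 4.13-fold on the means (log2 fold change 2.04 ± 0.10, adjusted p = 2.55e-08). Nmrk2 lies on the minus strand inside the span of the antisense transcript Atcayos (chr10:81194609-81210877, plus strand), and without strand information reads where exons overlap cannot be assigned to 1 of them. Atcayos was at 12.4, 8.4 and 10.8 with DMSO and 29.8, 26.1 and 24.2 with piericidin (log2 fold change 1.34 ± 0.16), so how much of each rise belongs to which gene cannot be told apart. With oligomycin the log2 fold change of Atcayos was -0.60 ± 0.17. With oligomycin Nmrk2 was at 19.1, 17.1 and 18.4 (log2 fold change 0.35 ± 0.11), above the DMSO samples and under the piericidin samples. Nampt, the enzyme that recycles nicotinamide to NAD, was at 44.9, 55.1 and 50.1 with DMSO and 35.1, 34.8 and 35.5 with piericidin and fell (log2 fold change -0.51 ± 0.078, adjusted p = 0.00102). Nmrk2 and Nampt were the 2 genes called among 18 of NAD synthesis and use. Of 9 genes of NADH shuttles, 3 rose and 0 fell: Got1 of the malate-aspartate shuttle, and both enzymes of the glycerol-3-phosphate shuttle, Gpd1 in the cytosol (log2 fold change 0.55 ± 0.15, adjusted p = 0.0441) and Gpd2 in mitochondria (0.49 ± 0.11, adjusted p = 0.0156). Without DMSO replicate 2 or 3 or piericidin replicate 1 or 2, 1 gene of the list was called higher.

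Genes of complex I, the target of piericidin, were called at a share near that of all genes tested (6.78%). Of 36 nuclear subunits 2 rose and 0 fell, Ndufs7 at 0.27 ± 0.048 and Ndufa6 at 0.20 ± 0.05. Among 13 mRNAs of mitochondrial DNA, mt-Nd2, a complex I subunit, was at 177, 163 and 193 with DMSO and 125, 131 and 114 with piericidin and fell (log2 fold change -0.53 ± 0.079, adjusted p = 0.00087), while mt-Co2 and mt-Co3 of complex IV rose by 0.21 ± 0.048 and 0.20 ± 0.038. In the TCA cycle and pyruvate dehydrogenase list, 3 of 29 rose and 2 fell, both of the latter being kinases of pyruvate dehydrogenase, Pdk1 and Pdk3 (-0.42 ± 0.085). A related kinase, Pdk2, rose at 0.34 ± 0.063, as did the isocitrate dehydrogenase subunits Idh3a and Idh3b.

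Muscle genes moved in both directions. Of 25 myotube markers, 7 rose, 4 fell and 14 did not pass. Myosin genes were among both the 7 that rose and the 4 that fell. Acta1 (chr8:123891769-123894751), skeletal alpha-actin, was at 5925, 6087 and 5808 with DMSO and 8343, 8605 and 8718 with piericidin (log2 fold change 0.53 ± 0.03, adjusted p = 9.91e-08), and Myh4, a fast myosin, at 473, 488 and 462 and 717, 672 and 730.1 (log2 fold change 0.58 ± 0.053, adjusted p = 1.02e-05). Both were higher in all piericidin samples than in any DMSO sample. The slow myosin Myh7, cardiac actin Actc1, myoglobin Mb, creatine kinase Ckm and alpha-actinin Actn2 rose by 0.59 ± 0.073, 0.34 ± 0.055, 0.29 ± 0.075, 0.27 ± 0.044 and 0.27 ± 0.07. The 4 that fell were Mymx and Mymk, which encode the fusion proteins myomixer and myomaker (-0.54 ± 0.072 and -0.17 ± 0.034), the differentiation factor Myog (-0.19 ± 0.044) and the fast myosin Myh1 (-0.22 ± 0.045). Asb2, a muscle ubiquitin ligase subunit, rose from 19.5, 20.5 and 14.9 to 37.1, 34.2 and 44.1 (log2 fold change 1.07 ± 0.18, adjusted p = 0.00256) and was at 1.78, 2.23 and 0.633 with oligomycin. Asb2 thus lay above DMSO with piericidin and under it with oligomycin. At the neuromuscular junction 4 of 15 genes fell, among them the acetylcholine receptor subunits Chrnd and Chrng and acetylcholinesterase (Ache), and 1 rose, the receptor-clustering protein Rapsn. Without DMSO replicate 1 or 2, 2 of the myotube markers fell. Of the junction genes 1 fell without DMSO replicate 1 or piericidin replicate 2 or 3, and 2 without DMSO replicate 2 or 3.

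**Figure D3:**
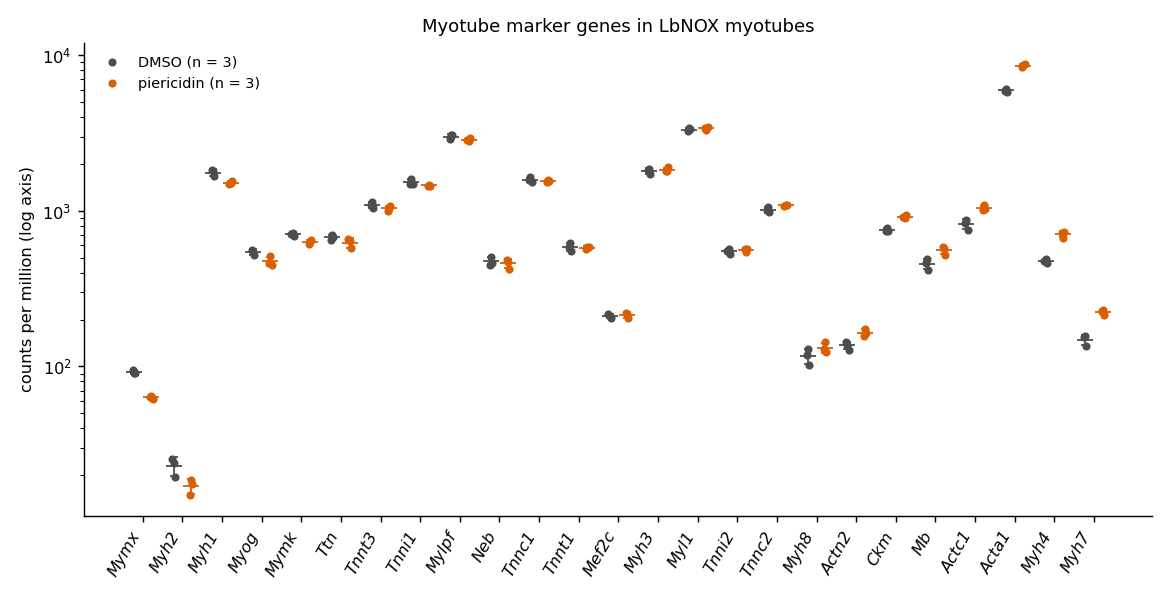
CPM (log axis) of 25 myotube markers in the 3 DMSO and 3 piericidin samples of LbNOX myotubes, ordered by log2 fold change, with dots for samples and bars for the mean and SD. Mymx, Myh1, Myog and Mymk fell, and Actn2, Ckm, Mb, Actc1, Acta1, Myh4 and Myh7 rose.

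Of 7 tested genes of glucose transport and MondoA targets 2 rose, 1 fell and 4 did not pass. The insulin-responsive transporter Slc2a4 (GLUT4, chr11:69942539-69948188) was at 4.99, 4.94 and 3.57 with DMSO and 8.34, 9.46 and 9.49 with piericidin (log2 fold change 1.01 ± 0.19, adjusted p = 0.00467), while Slc2a1 fell as given above and Slc2a8 did not pass (0.13 ± 0.11, adjusted p = 0.526). Slc2a6, which is outside the list and was chosen after its values were seen, had a log2 fold change of -1.14 ± 0.075 (adjusted p = 4.61e-07). Txnip, the glucose-sensing arrestin, did not pass (log2 fold change -0.34 ± 0.12, adjusted p = 0.108), and its relative Arrdc3 rose by 0.50 ± 0.098. Other large rises were in Bcl2l11, the pro-apoptotic protein BIM, from 21.2, 17.2 and 17.5 to 37, 38.7 and 42.2 (log2 fold change 1.07 ± 0.11, adjusted p = 3.58e-05), and in Cnksr1, a scaffold of Ras signaling, from 7.12, 7.61 and 5.53 to 20.3, 15.4 and 19.7 (log2 fold change 1.45 ± 0.14, adjusted p = 2.13e-05). Bcl2l11 and Cnksr1 had no overlap between the groups. The receptors Gpr157 and Adora2b, an adenosine receptor, and the anion exchanger Slc26a6 rose by 1.32 ± 0.18, 0.92 ± 0.16 and 1.00 ± 0.21. Rps27rt, a near copy of a ribosomal protein gene, is uncertain at 1.78 ± 0.47, and its call was lost when any 1 sample other than DMSO replicate 1 was left out.

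Among immediate early and lipid synthesis genes more were called lower than higher. Of 25 tested immediate early genes and KLF factors, 8 fell and 2 rose. Fos and Fosl1, subunits of AP-1, had log2 fold changes of -1.10 ± 0.21 and -1.39 ± 0.26, and the zinc finger factors Egr1 and Egr2 of -0.70 ± 0.055 and -1.08 ± 0.15. Egr1 was at 101, 96.3 and 99.7 with DMSO and 57.4, 61 and 64.3 with piericidin (adjusted p = 2.51e-06). The nuclear receptor Nr4a1 rose, from 11.1, 16.1 and 16.1 to 32.6, 33.1 and 31.3 (log2 fold change 1.16 ± 0.12, adjusted p = 3.4e-05), with Atf3 as the other riser. Of 24 genes of cholesterol synthesis and SREBP2, 6 fell (Cyp51, Sqle, Insig1, Fdft1, Ebp and Fdps, at -0.35 to -0.16) and 1 rose, the last enzyme of the pathway Dhcr7 (0.33 ± 0.079). Without DMSO replicate 2 or piericidin replicate 3, 2 genes of this list were called lower. Idi1 of the same pathway did not pass (log2 fold change -0.19 ± 0.076, adjusted p = 0.16). Fatty acid synthase (Fasn), Srebf1 and the desaturase Scd2 fell, 3 of 13 genes of fatty acid synthesis, with log2 fold changes of -0.48 ± 0.08, -0.39 ± 0.07 and -0.34 ± 0.042, and 0 rose. Angptl4, a lipase inhibitor, and Acsl1, which activates fatty acids, fell among 17 genes of fatty acid oxidation.

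Counts in the other lists stand beside 6.78% called over all genes tested. Among heat shock genes 3 of 16 fell (Hspa8, Dnaja1 and Dnajb1) and Hspb7 rose. The mitochondrial chaperones Hspa9, Hspd1 and Dnaja3 rose, 3 of 14, by 0.17 ± 0.036, 0.20 ± 0.039 and 0.37 ± 0.055. Both metallothioneins Mt1 and Mt2 fell, by 0.68 and 0.60 on the log2 scale. Among 33 cell cycle genes 1 rose (Cdk2) and 1 fell (Cdkn1a, the inhibitor p21, at -0.33 ± 0.031), while Ccne1 and Tk1 did not pass (adjusted p = 0.972 and 0.343). Counts of higher and lower calls were 1 and 1 of 18 NRF2 targets, 1 and 1 of 18 endoplasmic reticulum chaperones, 2 and 1 of 15 p53 targets, 1 and 2 of 14 clock genes, 2 and 0 of 17 of calcium handling, and 1 and 2 of 12 myoblast and reserve cell markers. Of 17 genes of atrophy and growth 3 rose and 4 fell. The growth factors Igf1 and Igf2 rose by 0.39 ± 0.086 and 0.34 ± 0.074, beside Eif4ebp1, and the receptor Igf1r, the ubiquitin ligase Fbxo30 and the caveolar protein Cavin4 had log2 fold changes of -0.50 ± 0.13, -0.47 ± 0.13 and -0.30 ± 0.035, beside Bnip3. Without DMSO replicate 3 or piericidin replicate 3, 2 genes of the list were called lower, and without DMSO replicate 3 or piericidin replicate 1, 1 was called higher. None of 9 tested interferon response genes was called.

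The piericidin response was then set beside that of myotubes without LbNOX, which use their own DMSO samples. Untransduced myotubes lacked the adenovirus and eGFP as well as LbNOX, so in differences from them the vector and LbNOX cannot be told apart. In untransduced myotubes 908 of 11983 genes were called (7.58%), 413 higher (3.45%) and 495 lower (4.13%), and in GFP myotubes 383 of 12397 (3.09%), 170 higher (1.37%) and 213 lower (1.72%). The GFP count fell to 27 when those 4 samples were fitted alone, and to 161 to 197 without any 1 of them. Of the 841 genes called in LbNOX myotubes, 836 were also tested in untransduced myotubes and 801 of these had a fold change of the same sign there (95.8%), against 64.5% of 11093 genes not called. For GFP myotubes it was 807 of 841 (96.0%), against 63.1% of the rest. 452 of the 836 were called in the same direction in untransduced myotubes and 296 of the 841 in GFP myotubes, and 0 were called in opposite directions in either. Pearson's r of the log2 fold changes across the called genes, which are not independent points, was 0.773 with untransduced and 0.846 with GFP myotubes, and 0.885 and 0.838 without Gm5537, a gene at 0 in all 3 LbNOX DMSO samples that was singled out after its values were seen.

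**Figure D4:**
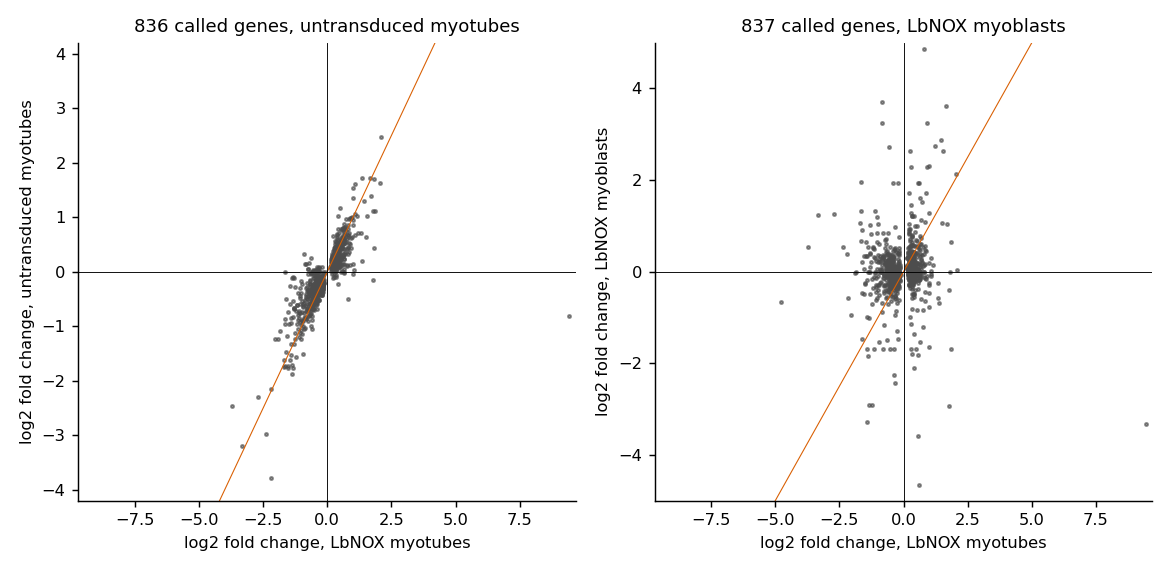
Log2 fold change of genes called in LbNOX myotubes (horizontal) against that in untransduced myotubes (left, 836 genes) and LbNOX myoblasts (right, 837 genes), 1 dot a gene, with the line of equal response in orange. On the left 801 of 836 dots share a sign, on the right 488 of 837; the dot at the far right is Gm5537, at 0 in all 3 LbNOX DMSO samples, whose fitted value depends on the prior count.

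Tested gene by gene as an interaction, the response of LbNOX myotubes differed from that of GFP myotubes at 0 of 12397 genes (0%) and from that of untransduced myotubes at 0 of 11983 (0%) by edgeR, with 567 and 1017 genes at an unadjusted p under 0.05. DESeq2 called 2 and 4. Ndrg1 was in both, and the others, named after their values were seen, were Gm28438 for GFP and Ankrd1, Chac1 and Pgp for untransduced myotubes. Without the count filter edgeR called 261 and 320, so the number called depended on the filter and on the tool. Leaving out LbNOX DMSO replicate 1 gave 24 calls against untransduced myotubes and leaving out untransduced DMSO replicate 3 gave 1. Over the 841 called genes the 95% interval of the difference from GFP myotubes had a median half-width of 0.277 on the log2 scale, and lay within 2-fold either way for 746 genes (88.7%); for untransduced myotubes it was 0.256 and 744 of 836 (89.0%). These intervals are those of single genes, not adjusted for the number tested, so that some exclude 0 where the adjusted p is high.

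Among HIF targets, 11 of 16 were called lower in GFP and 12 of 16 in untransduced myotubes, with medians of -0.99 and -0.70 beside -1.08 with LbNOX. The difference was negative, meaning a lower response in LbNOX myotubes, in 14 of 16 against GFP and 13 of 16 against untransduced myotubes. At an unadjusted p under 0.05 in edgeR, 2 differences were negative against GFP and 8 against untransduced myotubes, and 0 were positive. After adjustment edgeR called none of the differences, and DESeq2 called Ndrg1 in both (adjusted p = 0.0029 against GFP and 1.62e-06 against untransduced myotubes). In edgeR, Ndrg1 had a difference of -0.61 ± 0.12 from GFP myotubes (95% interval -0.85 to -0.36, adjusted p = 0.932) and -0.77 ± 0.12 from untransduced myotubes (95% interval -1.04 to -0.51, adjusted p = 0.2). For Slc2a1 the difference from GFP myotubes was -0.081 ± 0.13 (95% interval -0.36 to 0.20, adjusted p = 0.964) and that from untransduced myotubes was -0.57 ± 0.16 (95% interval -0.91 to -0.22, adjusted p = 0.47). For glycolysis 9 of 22 genes fell in GFP and 14 of 22 in untransduced myotubes. EdgeR and DESeq2 called none of the differences, and in edgeR the difference for Slc16a3 was -0.07 ± 0.16 against GFP (95% interval -0.41 to 0.28) and -0.038 ± 0.19 against untransduced myotubes (95% interval -0.44 to 0.37). For Pfkl it was 0.054 ± 0.13 (95% interval -0.22 to 0.33) and 0.096 ± 0.15 (95% interval -0.23 to 0.43). Of the 22 differences 12 were negative against GFP and 13 against untransduced myotubes. At an unadjusted p under 0.05 in edgeR, that of Hk2 was negative against both (-0.27 and -0.43). That of Eno3 was positive against untransduced myotubes (0.15), and no other glycolysis gene was under this threshold.

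Among ISR genes edgeR called no difference, and DESeq2 called that of Chac1 from untransduced myotubes (0.864 ± 0.189, adjusted p = 0.0161). In the list of transcription factors and feedback genes 5 of 12 rose in GFP and 3 of 12 in untransduced myotubes. The differences were negative in 2 of 12 against GFP (median 0.166) and in 3 of 12 against untransduced myotubes (median 0.271). At an unadjusted p under 0.05 in edgeR, 2 were positive against GFP and 7 against untransduced myotubes, and 0 were negative in either comparison. In GFP myotubes Chac1 rose by 0.75 ± 0.12 (adjusted p = 0.00375), and the difference of LbNOX from GFP myotubes was 0.25 ± 0.16 (95% interval -0.088 to 0.60, adjusted p = 0.932). Chac1 had a log2 fold change of 0.14 ± 0.11 in untransduced myotubes (adjusted p = 0.51) and a difference of 0.87 ± 0.16 in edgeR (95% interval 0.53 to 1.21, adjusted p = 0.378). Atf3 rose by 0.79 ± 0.16 in GFP myotubes (adjusted p = 0.0127), with a difference of 0.72 ± 0.21 (95% interval 0.26 to 1.17, adjusted p = 0.932). In untransduced myotubes its values were 0.64 ± 0.22 (adjusted p = 0.097) and 0.88 ± 0.31 (95% interval 0.22 to 1.54, adjusted p = 0.489). Of the amino acid synthesis genes 9 of 15 rose in GFP and 5 of 15 in untransduced myotubes. The differences were negative in 10 of 15 against GFP (median -0.22) and in 8 of 15 against untransduced myotubes (median -0.02). At an unadjusted p under 0.05 in edgeR, 7 were negative and 0 positive against GFP, and 1 was negative and 2 positive against untransduced myotubes. The difference of Aldh1l2 was -0.64 ± 0.13 against GFP (95% interval -0.91 to -0.36, adjusted p = 0.932) and -0.065 ± 0.13 against untransduced myotubes (95% interval -0.35 to 0.22, adjusted p = 0.926). Nmrk2 rose in all 3 kinds of myotubes, by 1.59 in GFP and 1.62 in untransduced myotubes beside 2.04 with LbNOX. Plod2, in contrast, had log2 fold changes of -0.41 ± 0.36 and -0.26 ± 0.17 in GFP and untransduced myotubes (adjusted p = 0.676 and 0.433), with differences that neither edgeR nor DESeq2 called (in edgeR -1.05 ± 0.47 and -1.19 ± 0.25, adjusted p = 0.932 and 0.47).

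In LbNOX myoblasts piericidin raised part of the hypoxia and glycolysis genes that fell in LbNOX myotubes. There 750 of 12322 genes were called (6.09%), 459 higher (3.73%) and 291 lower (2.36%). The response differed between LbNOX myotubes and LbNOX myoblasts at 586 of 12322 genes (4.76%), 196 with the higher (1.59%) and 390 with the lower response in myotubes (3.17%). The count was 1091 without the count filter, 372 with well position as a covariate and 297 to 946 without 1 sample. It was 946 without myoblast piericidin replicate 2, and 297 to 330 without either of myoblast DMSO replicates 1 and 2, myoblast piericidin replicates 1 and 3, myotube DMSO replicates 2 and 3, or myotube piericidin replicates 2 and 3. Of 16 HIF targets 6 rose in LbNOX myoblasts and 0 fell, with a median log2 fold change of 0.45, and 12 had a lower response in myotubes. Ndrg1 had a log2 fold change of 1.33 ± 0.074 in myoblasts (adjusted p = 1.66e-07), Pdk1 1.33 ± 0.11 and Bnip3 1.19 ± 0.11. Each of these fell in the myotubes. Of 22 glycolysis genes 8 rose in myoblasts and 0 fell, among them Slc16a3 at 1.07 ± 0.12 and Pfkl at 0.67 ± 0.088, and 12 had a lower response in myotubes. Over the genes called in LbNOX myotubes, of 837 tested in both, 488 had the same sign (58.3%), 130 were called in the same and 44 in the opposite direction, and r across genes was 0.0291, or 0.113 without Gm5537. The myoblasts received LbNOX from another vector and were not kept in low serum, so cell state and vector cannot be told apart.

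**Figure D5:**
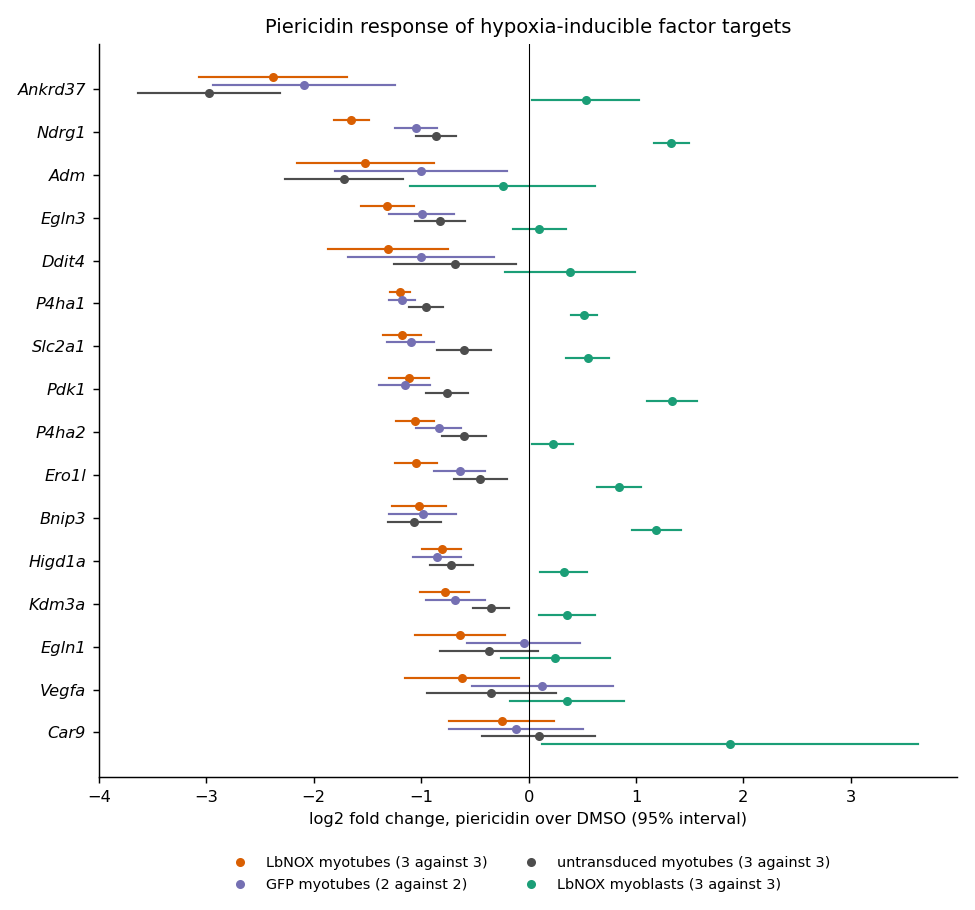
Log2 fold change with its 95% interval, piericidin over DMSO, of the 16 HIF targets in LbNOX, GFP and untransduced myotubes and in LbNOX myoblasts. Ndrg1, Pdk1, Bnip3 and P4ha1 lie under 0 in the 3 kinds of myotubes and above 0 in LbNOX myoblasts.

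ISR genes rose in both LbNOX cell states. In myoblasts 9 of 12 transcription factors and feedback genes and 13 of 15 genes of amino acid synthesis rose, against 8 and 8 in myotubes, and 5 and 12 had a lower response in myotubes. Trib3 rose by 2.63 ± 0.15 in myoblasts, and the difference was -1.06 ± 0.21 (adjusted p = 0.0126). Asns rose by 0.84 ± 0.056 in myoblasts, with a difference of -0.58 ± 0.081 (adjusted p = 0.000959). Atf3 and Ddit3 had no called difference (adjusted p = 0.577 and 0.346), and the 95% intervals of the difference were -0.44 to 1.40 and -0.49 to 0.048. Gdf15 had a log2 fold change of 1.04 ± 0.15 in myoblasts and a difference of 0.68 ± 0.23 (adjusted p = 0.108). Idi1 of cholesterol synthesis fell in myoblasts by 0.86 on the log2 scale, and its response was higher in myotubes by 0.69 ± 0.096 (adjusted p = 0.000956).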

How the data were processed

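Samples were polyA Smart-seq2 RNA-seq libraries without strand information. The authors estimated transcript counts with kallisto 0.44, after bcl2fastq 2.20.0.422, against Ensembl mouse transcripts of GRCm38.p6 with the transgenes added, summarized them to genes and summed the flow cells, and deposited them as estimated counts, whole numbers without normalization. Total counts of the 6 samples were 8962516 to 10044896, so low genes are the least precise.

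From these counts, differences were tested in R 4.3.3 with edgeR 4.0.16 (quasi-likelihood F test, TMM, two-sided, Benjamini-Hochberg adjustment over all genes tested, threshold 0.05), keeping a gene where all replicates of 1 or more groups reached 16 counts. LbNOX and GFP myotubes were fitted together. The comparisons with untransduced myotubes and LbNOX myoblasts were fitted with the LbNOX myotubes in fits of their own. Standard errors were derived from the fold change and F statistic. Scripts were tested on simulated data.

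Samples were taken by their labels, but the comparison and the gene lists were chosen with earlier results of these data known. Genes outside the lists were the 15 in each direction with the largest fold change among those called, without overlap of the samples, at a mean of at least 50 counts and with a gene name, up to 5 in each direction for each difference of responses, and genes the study named. Alternatives were DESeq2 1.42.0, its size factors, no count filter, only the compared groups, outer or inner well, replicate number as a block, and leaving out each sample. Replicate numbers did not pair the samples. Gene coordinates are from GENCODE M21 (GRCm38) and promoters from RefSeq (GRCm38.p6).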

Additional observations from a re-analysis of the deposited data

Results flagged for a closer look

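All results listed here are differences between the piericidin response of LbNOX myotubes and that of LbNOX myoblasts, tested as an interaction in edgeR. There were 586 such genes, with a lower response in myotubes for 12 HIF targets, 12 genes of glycolysis and lactate, 5 ISR transcription factors and feedback genes, and 12 genes of ISR amino acid synthesis.

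Among the 10 genes with the largest differences, given below, Pstpip1 was called in opposite directions in the 2 cell states. Its log2 fold change was 0.41 in myotubes and -1.35 in myoblasts (edgeR, adjusted p = 0.0197 and 0.0166). Outside those 10, 15 named genes were called in opposite directions. The log2 differences, myotube less myoblast response, were -3.95 for Ak4, -2.96 for Ndrg1, -2.73 for Slc16a3, -2.42 for Pdk1, -2.32 for Pfkl, -2.19 for Bnip3 and -1.88 for Pgam1-ps2, whose reads could have been split with those of Pgam1. They were -1.86 for Ero1l, -1.70 for Slc2a1, -1.68 for P4ha1, -1.44 for Pgam1, -0.83 for Ldha, -0.71 for Tpi1, -0.63 for Gpi1 and -0.53 for Aldoa.

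Of the genes with the largest differences, Atp9a (4.57), Slc2a4 (2.68), Sntb1 (2.51), Txnip (1.89) and Pstpip1 (1.79) had the higher response in myotubes, and Cox6a2 (-6.45), Dnaaf5 (-4.92), Gpr35 (-4.54), Serpinb9g (-4.53) and Apln (-4.24) the lower. Several had few counts in myoblasts, so that these fitted values depend on the prior count. Cox6a2 had 0 counts in all 3 DMSO myoblast samples and 10, 12 and 14 with piericidin, at least 14.6-fold higher against a floor of 3 counts over the group. Atp9a had 5, 6 and 2 with DMSO and 0 in all 3 with piericidin, at least 3.56-fold lower against that floor. Serpinb9g had 0, 2 and 0 with DMSO and 0, 4 and 21 with piericidin, and Slc2a4 had 11, 8 and 2 with DMSO and 1, 1 and 3 with piericidin. Dnaaf5 had 46, 65 and 52 with DMSO and 207, 43 and 490 with piericidin, so its groups overlapped. No myoblast sample of Cox6a2 or Atp9a reached 16 counts, so both passed the count filter through myotube samples only. Atp9a, Txnip, Cox6a2 and Dnaaf5 were not called in LbNOX myotubes (edgeR, log2 fold changes -0.34, -0.34, 0.21 and -2.5, adjusted p = 0.104, 0.108, 0.134 and 0.125). For Atp9a and Txnip the higher response in myotubes was a less negative fold change, beside -4.9 and -2.2 in myoblasts.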

How the results depend on the processing

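No fold change that was called reversed where it was recomputed. Of those not called, leaving out 1 sample gave a log2 fold change of Ccne1 of -0.0801 to 0.0556, a log2 fold change of Psat1 of -0.0459 to 0.000262, a log2 fold change of Pfkfb4 of -0.414 to 0.035 and a log2 fold change of Slc16a1 of -0.225 to 0.081, beside -0.0137, -0.0248, -0.191 and -0.102 with all samples. That of Slc16a1 was 0.0688 with well position as a covariate. Fold changes of named genes were recomputed without each of the 6 LbNOX myotube samples, and those of the difference from LbNOX myoblasts also without each myoblast sample. Leaving out GFP, untransduced or oligomycin samples was run for counts of calls only. Without a count filter, calls were 1362 in LbNOX myotubes, 261 and 320 for the difference from GFP and untransduced myotubes (239 and 276 of them above the count minimum) and 1091 for that from LbNOX myoblasts. DESeq2 called 2 and 4 for the differences from GFP and untransduced myotubes. With well position as a covariate 372 genes differed from LbNOX myoblasts. With only the compared groups fitted, GFP myotubes had 27 calls and ISR amino acid synthesis 5 rising genes. The cause of these moves was not tested.

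Leaving out 1 sample gave 528 to 643 calls in LbNOX myotubes, 161 to 197 in GFP myotubes, 3235 to 3421 with oligomycin, 0 for the difference from GFP myotubes, 0 to 24 for that from untransduced myotubes and 297 to 946 for that from LbNOX myoblasts. It gave 13 falling HIF targets, 11 to 13 falling glycolysis genes, 7 to 8 rising ISR transcription factors and feedback genes and 4 to 6 rising genes of ISR amino acid synthesis.

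Same-numbered DMSO and piericidin samples did not deviate together (correlations -0.091, -0.189 and -0.0928), so the numbers are no pairing. With replicate number as a block, calls were 725 in LbNOX myotubes, 330 in GFP myotubes, 0 and 0 for the differences from GFP and untransduced myotubes and 454 for that from LbNOX myoblasts.

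Of 90 named genes, 2 lost their call with DESeq2, 0 with its size factors, 4 without the filter, 4 with only the compared groups, 3 with well position, 5 with the block and 8 to 10 without 1 sample. Aldh1l2, Aldoc, Hk2, Pfkm, Rrad, Eif4ebp1 and Asns were among those that lost it most often.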
